A study of Homo sapiens with 8 samples.

Results

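The comparison set 2 edited lines of MEL202 against each other, using 4 of the 8 libraries of the series. MEL202 is a human uveal melanoma cell line that carries a mutation in SF3B1, a component of the U2 small nuclear ribonucleoprotein. One line had its mutant SF3B1 allele knocked out (the knockout line). The other carried a destabilising domain, DD, on the mutant SF3B1 protein (the mutant degron line). Each line had 1 library without and 1 with Shld, the small ligand that protects a DD-tagged protein from degradation, and these served as its 2 replicates. The 2 libraries of the wildtype degron line, whose DD is on wildtype SF3B1, and the 2 libraries of parental MEL202 entered the same model and are given for orientation.

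The names of the deposited knockout columns add a DD knock-in at wildtype SF3B1 and, for the library without Shld, 4 days of withdrawal, whereas the sample labels name no DD for this line and give 2 days. The name of the parental column without Shld gives 4 days too, and the labels give 2 days for both degron lines. If the column names hold, wildtype SF3B1 protein was also being lost in the knockout library without Shld, and the spread within that pair includes this. In the mutant degron library without Shld, the DD-tagged mutant SF3B1 lacked its protecting ligand. The mean of that line thus pools a state with and a state without protection of mutant SF3B1, and protein levels were not measured here. The labels list each derived line under the tag clone, so the editing of SF3B1 and differences between clones cannot be told apart in any value below. Nothing in the labels says that the libraries of a line came from separate cultures, and p-values measure only the spread between these libraries.

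SF3B1 is the largest protein of the SF3b complex, which holds the branch point adenosine of an intron during early spliceosome assembly. Hotspot mutations in SF3B1 are frequent in uveal melanoma, in myelodysplastic syndromes and in chronic lymphocytic leukaemia, and they make the spliceosome use cryptic 3′ splice sites upstream of the usual ones. Many of the resulting transcripts are targets of nonsense-mediated decay. Uveal melanoma arises from melanocytes of the eye, which descend from the neural crest and share transcription factors with nerve, glial and connective tissue precursors.

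Levels are FPKM-type values, that is fragments per transcript length and library size, which the authors rescaled so that the 75th percentile of every library was 10. Of 32087 loci in the table, 8600 named ones that averaged at least 5 across the 8 libraries were tested. Values of a line are given without Shld first and with Shld second. A difference is the mean of log2(value + 1) in the knockout line minus that in the mutant degron line, with its standard error from limma, and adjusted p-values are Benjamini-Hochberg values over all 8600 loci. This scale understates differences of genes with low levels. The sums of values were 817900.0 and 854508 in the knockout libraries and 827303 and 814936 in the mutant degron libraries, and absolute depth is unknown because no counts were used here. Libraries of the 8 listed between 13430 and 14080 loci at 0.

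SF3B1 itself was lower in the knockout line. It stood at 138 and 158 in the knockout line, against 252 and 248 in the mutant degron line, while wildtype degron cells had 201 and 188 and parental cells 239.8 and 266. Both knockout libraries were below all 6 others, and the difference was -0.76 ± 0.10, adjusted p = 0.0015. The value adds the transcripts of both alleles, so it does not show which allele was lost. Among 16 measured genes of the SF3b complex and of proteins that work with U2, 2 fell and none rose, near the 12.6% of all loci called, and the median difference was 0.08, beside 0.01 over all loci tested. The second gene that fell was SUGP1, a G-patch protein that binds SF3B1 and whose loss is known to mimic part of the mutant splicing pattern, with 20.4 and 19.01 in the knockout line, against 26.8 and 30.6 in the mutant degron line (difference -0.52 ± 0.10, adjusted p = 0.014). SF3B3 had 72.7 and 59.8 in the knockout line, against 45.6 and 47.4 in the mutant degron line and was not called (adjusted p = 0.083).

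In all, 1084 of 8600 loci (12.6%) were called at an adjusted p under 0.05. Of these, 523 were higher in the knockout line (6.08% of loci tested) and 561 were lower (6.52%). The median absolute difference was 0.55 among calls and 0.16 among all loci, and 152 calls reached 1 on the log2 scale, 47 of them higher and 105 lower. Both knockout libraries lay on one side of both mutant degron libraries at each of the 1084 calls, as they did at 5086 of all loci tested (59.1%). Leaving out a library also takes the spread of its pair out of the model, and the cause of the changes below was not tested. Counts of list members called with a library left out, given further below, stand beside the totals over all loci that follow here. The count of calls fell most when a mutant degron library was left out. It fell to 295 when the mutant degron library with Shld was left out and to 368 without the one lacking Shld, against 803 and 1613 without the knockout library lacking Shld and without the one with Shld. Of the 1084 calls themselves, 294 remained without the mutant degron library with Shld, 365 without the one lacking it, 674 without the knockout library lacking Shld and 908 without the one with it. Through all 4 omissions 257 calls held, among them 132 of the 152 that reached 1. With only the 4 libraries of the 2 lines in the model, 653 loci were called. The smallest p that an exact permutation test of 2 against 2 libraries can give is 0.333, so the calls depend on the spread that the model shares across loci.

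The difference between the lines could be measured separately in each Shld state, and these 2 measurements share no library. It reached 1 at 201 loci without Shld and at 183 with Shld, and 111 loci did so in both states with the same sign. Across the 8600 loci the 2 measurements had a Pearson correlation of 0.70 and a Spearman correlation of 0.52, given as a description because loci are not independent. The test of each state alone, with the spread taken from the parental and wildtype degron pairs, called 822 loci without Shld (9.56%) and 464 with Shld (5.4%). It sets 1 library against 1 with a spread borrowed from other lines, so it compares those libraries and not the lines. Within a line, the libraries without and with Shld differed by 1 or more at 29 loci in knockout cells, 5 in mutant degron cells, 6 in wildtype degron cells and 5 in parental cells. No locus of 8600 (0%) passed limma's test that the difference between the lines itself depended on Shld, and 713 had an unadjusted p under 0.05.

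**Figure D1:**
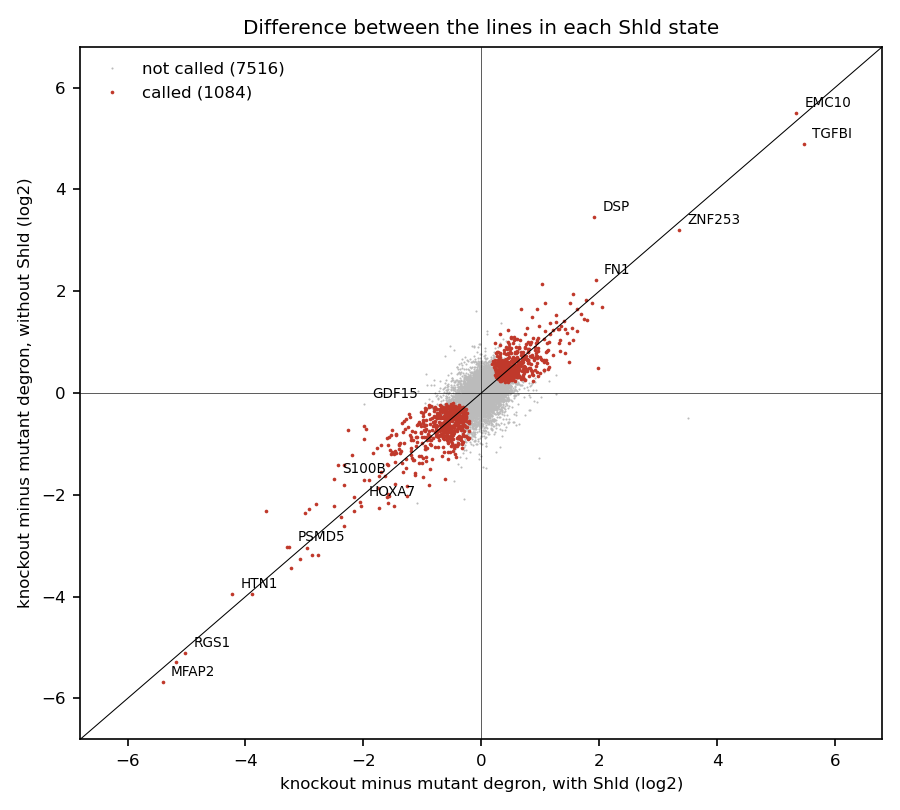
Difference between the knockout and the mutant degron line (log2) for each of 8600 loci, without Shld on the y axis and with Shld on the x axis; red points are the 1084 calls and grey points the other loci. The largest calls lie near the diagonal, DSP lies above it, and GDF15 is a grey point far to the left that lies near 0 on the y axis.

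Set against the mean of the other 3 lines, the knockout line differed at 2872 loci (33.4%), 1399 higher and 1473 lower. Both knockout libraries stood above all 6 other libraries at 1106 loci and below all 6 at 940. Among the 1084 loci that separated it from the mutant degron line, the knockout line was above all 6 others at 359 and below all 6 at 384. Measured from parental cells, 92 of the 1084 calls lay on the knockout side, meaning that the knockout line was at least 1 from parental and the mutant degron line within 0.5. On the mutant degron side lay 18 calls, and at 20 the lines had moved in opposite directions by at least 0.5 each. The other 954 met none of these limits. Among the 152 calls that reached 1 these numbers were 45, 13, 20 and 74.

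Both edited lines lay at least 1 from parental cells in the same direction at 190 loci, 99 higher and 91 lower. At 109 of them the lines were within 0.5 of each other. TTR, the transthyretin carrier of thyroid hormone and retinol, had 93.7 and 87.3 in the knockout line, 62.9 and 76.7 in the mutant degron line and 5.28 and 4.66 in parental cells. The natriuretic peptide clearance receptor NPR3 had 20.4 and 31.4 in the knockout line, 21.9 and 24.5 in the mutant degron line and 0.907 and 0.601 in parental cells. ID3, an inhibitor of basic helix-loop-helix factors and a target of BMP signalling, had 262 and 173 in the knockout line, 289 and 271 in the mutant degron line and 30.9 and 29.5 in parental cells. None of these 3 was called between the edited lines (adjusted p = 0.064 for TTR, 0.71 for NPR3 and 0.22 for ID3). At 86 of the 190 loci the edited lines were called different, beside 12.6% of all loci called. The knockout line was the one further from parental at 145 of all 190 loci and at 79 of the 86 called. Both differences from parental share the parental libraries, so these counts are descriptions.

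Several genes were graded from parental cells over the mutant degron line to the knockout line. FN1, which encodes the matrix glycoprotein fibronectin, stood at 1253 and 1140.0 in the knockout line, against 268 and 296 in the mutant degron line, while wildtype degron cells had 47.9 and 38.3 and parental cells 47.6 and 37.1. The edited lines did not overlap (difference 2.08 ± 0.14, adjusted p = 4.7e-05). NRCAM, a cell adhesion molecule of axons, had 100.2 and 93.5 in the knockout line, 28.6 and 32.1 in the mutant degron line, 0.488 and 0.375 in wildtype degron and 1.17 and 0.891 in parental cells (1.64 ± 0.12). Of the calls against the mean of the other 3 lines it had the largest rise (4.44 on the log2 scale, adjusted p = 1.4e-08 in limma). The thrombin receptor F2R followed the same order, with 129.5 and 131 in the knockout line, 68.5 and 83.2 in the mutant degron line and 11.9 and 9.22 in parental cells (0.78 ± 0.13). So did SCRG1, EML6 and CTGF among the 10 largest rises over the other lines, with differences from the mutant degron line of 1.17 ± 0.18, 0.96 ± 0.13 and 1.33 ± 0.18.

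Graded losses were seen as well. HTN1, a locus of the histatin gene family whose members are close copies of each other so that its reads may be shared, had 1.35 and 0.754 in the knockout line, 35.4 and 31.8 in the mutant degron line, 347 and 367 in wildtype degron and 312 and 362 in parental cells. The edited lines differed by -4.09 ± 0.14, and the knockout line was -6.31 from the mean of the other 3 lines, the largest of its falls against them. FMN2, a formin that nucleates actin, had 3.93 and 4.54 in the knockout line, 25.6 and 27.7 in the mutant degron line and 139.9 and 230.4 in parental cells (-2.4 ± 0.19). AQP9, a channel for water and glycerol, had 1.03 and 0.788 in the knockout line, 8.45 and 9.08 in the mutant degron line and 33.7 and 43.3 in parental cells (-2.36 ± 0.16). The antisense transcript LHFPL3-AS1 fell likewise, with 11.02 and 13.8 in the knockout line, 114 and 123 in the mutant degron line and 279 and 347 in parental cells (-3.16 ± 0.16). The library kit named in the labels does not mark strand, so reads of an antisense gene and of its partner cannot be told apart.

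Some loci were at or near 0 in one edited line and clearly present in the other. Under 1 in both knockout libraries and at least 5 in both mutant degron libraries were RGS1, SYNPR, TTC23L, PSMD5 and RAB33A. RGS1, which speeds the shut-off of G protein signals, had 0.316 and 0.425 in the knockout line, against 44.3 and 45.4 in the mutant degron line (-5.06 ± 0.12), and parental cells had only 2.32 and 2.88. SYNPR, a synaptic vesicle protein, had 0.0501 and 0.0182 in the knockout and 39.7 and 36.1 in the mutant degron line. It was at 22.5 and 22.1 in parental cells and listed at 0 in both wildtype degron libraries, so its loss was seen in 2 of the 3 edited lines. RAB33A, a small GTPase of vesicle traffic, had 0.118 and 0.129 in the knockout line against 16.3 and 15.7 in the mutant degron line and 13.8 and 15.3 in parental cells (-3.92 ± 0.11). PSMD5, a chaperone of proteasome assembly, had 0.0351 and 0.0255 in the knockout line against 7.41 and 8.79 in the mutant degron line, and parental cells had 11.98 and 12.7 (-3.14 ± 0.12). TTC23L had 0 and 0.0727 in the knockout line, against 9.803 and 9.04 in the mutant degron line (-3.33 ± 0.19). All but RGS1 were well expressed in parental cells, so relative to parental cells it was the knockout line that lacked them. The table holds a second, untested locus of TTC23L, which had 0.0788 and 0.149 in the knockout line, against 4.18 and 4.92 in the mutant degron line.

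The reverse pattern, at least 5 in both knockout libraries and under 1 in both mutant degron libraries, was found at TGFBI, DSP, ZNF253 and EMC10. EMC10, a subunit of the endoplasmic reticulum membrane protein complex, had 47.3 and 44.2 in the knockout line, 0.0629 and 0.111 in the mutant degron line, with 13.2 and 12.2 in parental cells and 0 listed in both wildtype degron libraries. Its difference of 5.42 ± 0.12 was the largest rise. A second, untested locus of the same name reached at most 0.92 in any of the 8 libraries. ZNF253, a KRAB-type zinc finger gene, had 9.09 and 11.3 in the knockout line, against 0.0966 and 0.196 in the mutant degron line (3.28 ± 0.15), with 6.38 and 7.36 in parental cells. DSP, the desmosomal plaque protein desmoplakin, had 11.99 and 5.103 in the knockout line, against 0.182 and 0.611 in the mutant degron line (2.69 ± 0.33), and parental cells had 6.09 and 10.1. For ZNF253 and DSP the parental level was thus close to that of the knockout line, and it was the mutant degron line that stood apart.

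**Figure D2:**
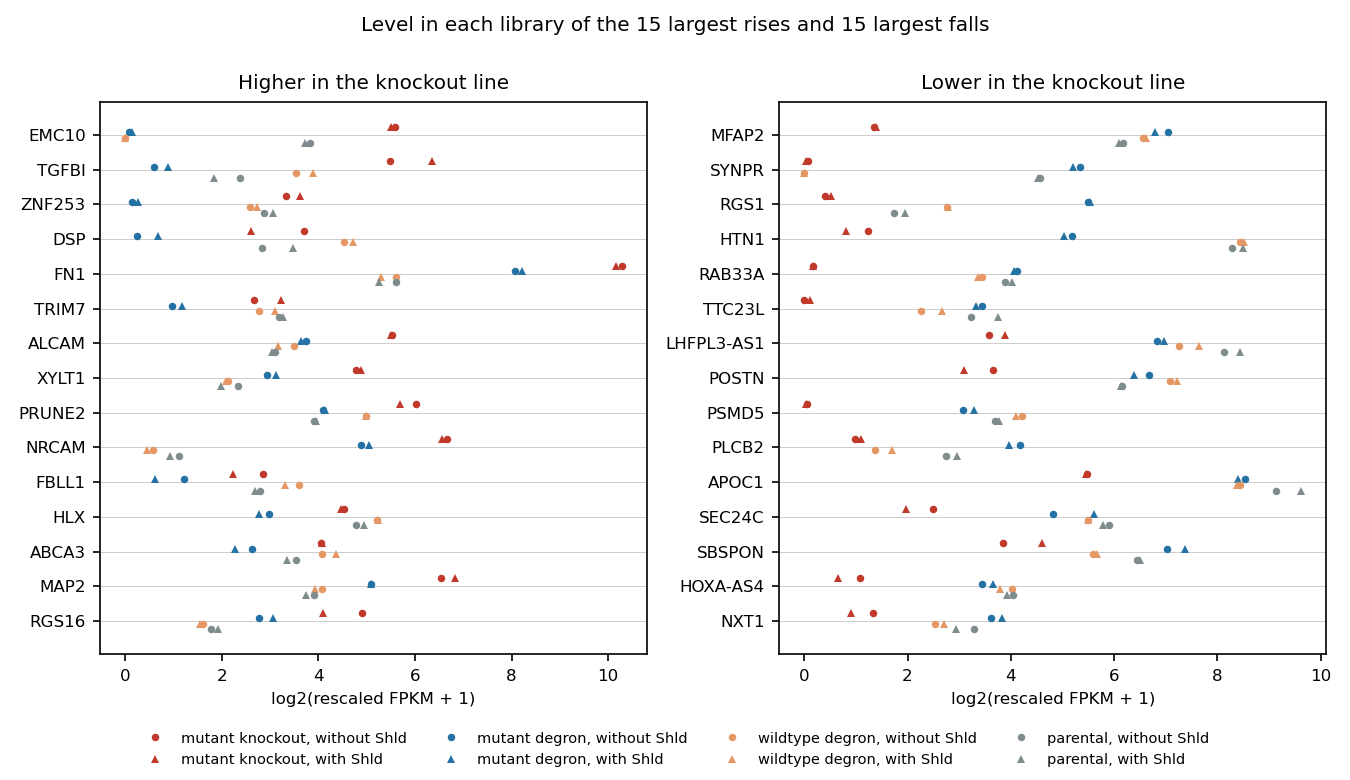
log2(rescaled FPKM + 1) in each of the 8 libraries for the 15 largest rises (left) and the 15 largest falls (right) of the knockout line against the mutant degron line; colours mark the lines, circles the libraries without Shld and triangles those with Shld. In every row the red points of the knockout line and the blue points of the mutant degron line do not overlap, which the choice of genes required. The parental points lie near the knockout line for DSP and TRIM7 and near the mutant degron line for POSTN and RAB33A.

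Other genes on the mutant degron side were the transcription factor HLX, with 22.3 and 21.1 in the knockout line, against 6.93 and 5.83 in the mutant degron line and 26.5 and 29.9 in parental cells (1.62 ± 0.10), and the ubiquitin ligase TRIM7, with 5.32 and 8.397 in the knockout line, against 0.955 and 1.27 in the mutant degron line and 8.05 and 8.66 in parental cells (1.87 ± 0.20). FBLL1, a fibrillarin-like gene, had 6.25 and 3.71 in the knockout line, against 1.32 and 0.532 in the mutant degron line (1.63 ± 0.24), with 5.97 and 5.49 in parental cells. On the knockout side were PRUNE2, with 64.4 and 50.8 in the knockout line, against 16.1 and 16.6 in the mutant degron line and 13.98 and 14.4 in parental cells (1.75 ± 0.11), and POSTN, described with the matrix genes below. SEC24C, a coat protein of vesicles that leave the endoplasmic reticulum, had 4.62 and 2.901 in the knockout line, against 27.2 and 47.96 in the mutant degron line, and 58.4 and 54.4 in parental cells (-2.99 ± 0.24). APOC1, an apolipoprotein, had 43.6 and 42.6 in the knockout line, against 369 and 338 in the mutant degron line, and 559 and 790.4 in parental cells (-3.0 ± 0.14). PLCB2, a phospholipase C that G proteins activate, had 0.985 and 1.16 in the knockout line, against 16.99 and 14.7 in the mutant degron line and 5.68 and 6.77 in parental cells (-3.02 ± 0.16). NXT1, an mRNA export cofactor, had 1.52 and 0.883 in the knockout line, against 11.3 and 13.2 in the mutant degron line (-2.6 ± 0.18), and SBSPON 13.3 and 23.3 in the knockout line, against 129 and 165 in the mutant degron line (-2.98 ± 0.21).

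Further large rises were XYLT1, which starts glycosaminoglycan chains on proteoglycans, with 26.3 and 28.7 in the knockout line, against 6.68 and 7.696 in the mutant degron line (1.8 ± 0.14), and the lipid transporter ABCA3, with 15.7 and 15.8 in the knockout line, against 5.16 and 3.83 in the mutant degron line (1.62 ± 0.15). RGS16, another brake on G protein signals, had 29.2 and 16.1 in the knockout line, against 5.800 and 7.34 in the mutant degron line (1.59 ± 0.23), so that the RGS1 and RGS16 levels moved in opposite directions. SF3B1 and the 30 genes with the largest rises and falls gave 550 values under the 18 other settings that were run. None of these changed sign. The 30 genes were chosen with both knockout libraries on one side of both mutant degron libraries. Most settings therefore could not change a sign, and that result is no support. The call was lost at 2 values, FBLL1 and RGS16 with no filter on level.

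Matrix genes changed in both directions. Of 14 fibrillar collagens and matrix glycoproteins, 4 rose and 5 fell, beside 6.08% higher and 6.52% lower among all loci, with a median difference of 0.07. TGFBI, a secreted protein that binds integrins and collagen, had 43.7 and 80.7 in the knockout line, against 0.513 and 0.840 in the mutant degron line, and parental cells had 4.17 and 2.59 (5.18 ± 0.28, adjusted p = 1.1e-05). FN1 rose as given above, as did the lysyl oxidase LOXL3 (8.56 and 8.48 in the knockout line, against 5.64 and 3.95 in the mutant degron line; 0.73 ± 0.15) and COL6A1 (98.02 and 95.6 in the knockout line, against 70.3 and 63.1 in the mutant degron line; 0.53 ± 0.11). The falls were led by MFAP2, a microfibril protein outside this list, which had 1.56 and 1.62 in the knockout line, against 130.4 and 109.9 in the mutant degron line and 70.95 and 67.8 in parental cells. Its difference of -5.54 ± 0.10, adjusted p = 7.6e-09 was the largest fall. Periostin, POSTN, had 11.6 and 7.53 in the knockout line, against 101 and 82.8 in the mutant degron line, with 69.9 and 68.99 in parental cells (-3.16 ± 0.17). Osteopontin, SPP1, had 20.1 and 9.84 in the knockout line, against 54.8 and 53.2 in the mutant degron line (-1.86 ± 0.25), and lumican, LUM, had 1.61 and 1.66 in the knockout line, against 7.98 and 6.36 in the mutant degron line (-1.63 ± 0.17).

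SPARC, an abundant calcium-binding matrix protein, had 421 and 386 in the knockout line, against 661 and 684 in the mutant degron line (-0.74 ± 0.14). MGP, an inhibitor of matrix calcification, had 803 and 702 in the knockout line, against 1213 and 1120.0 in the mutant degron line, with 121 and 109.8 in parental cells (-0.63 ± 0.10). Both edited lines were thus above parental cells in MGP, the mutant degron line further. The calls of FN1, TGFBI, POSTN, SPP1 and LUM held with each of the 4 libraries left out. Those of COL6A1, LOXL3, SPARC and MGP did not: with the mutant degron library with Shld left out 2 rose and 4 fell in this list, and without the one lacking Shld 3 and 3.

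Some basement membrane genes rose. Of 10 tested, 3 rose, beside 6.08% higher among all loci, none fell and the median was 0.22. COL4A5 had 16.4 and 18.9 in the knockout line, against 10.2 and 8.51 in the mutant degron line (0.85 ± 0.14), COL4A2 had 33.4 and 30.3 in the knockout line, against 20.1 and 19.5 in the mutant degron line (0.66 ± 0.12), and perlecan, HSPG2, had 24.3 and 27.3 in the knockout line, against 15.4 and 15.3 in the mutant degron line (0.71 ± 0.10). COL4A1, which shares a promoter region with COL4A2, had 22.8 and 19.9 in the knockout line, against 16.2 and 15.7 in the mutant degron line and was not called (adjusted p = 0.06). With each of the 4 libraries left out, HSPG2 kept its call, and between 1 and 5 of the list rose. Of the proteases, the membrane-anchored MMP17 had 316 and 294 in the knockout line, against 158 and 132 in the mutant degron line (1.07 ± 0.12) and ADAMTS1 24.3 and 22.9 in the knockout line, against 13.5 and 13.6 in the mutant degron line (0.76 ± 0.09), while the plasminogen activator PLAT fell, with 116 and 99.5 in the knockout line, against 199 and 219 in the mutant degron line (-0.95 ± 0.16). MMP17 and ADAMTS1 kept their calls through all 4 omissions, and PLAT lost its call without the mutant degron library with Shld.

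Among 6 integrin subunits limma called none, beside 12.6% of all loci, and 1 had an unadjusted p under 0.05, beside 2450 of all 8600 loci. Of 11 cadherin and catenin genes 1 fell and 1 rose, beside 12.6% of all loci called. Plakoglobin, JUP, fell, with 23.7 and 20.05 in the knockout line, against 37.6 and 41.5 in the mutant degron line (-0.83 ± 0.11). FAT1 rose, with 47.3 and 37.9 in the knockout line, against 23.5 and 31.9 in the mutant degron line (0.61 ± 0.15). JUP links desmosomal cadherins to DSP, whose level rose in the same comparison. In the neural immunoglobulin family 3 of 10 rose and 2 fell, beside 6.08% higher and 6.52% lower among all loci (median 0.20). ALCAM, a homophilic adhesion receptor first described on leukocytes, had 44.95 and 44.6 in the knockout line, against 12.4 and 11.4 in the mutant degron line, and 7.54 and 7.22 in parental cells (1.83 ± 0.12, adjusted p = 2.8e-05). L1CAM had 8.41 and 11.2 in the knockout line, against 5.28 and 5.31 in the mutant degron line (0.76 ± 0.14). ROBO1, a receptor for Slit proteins, had 31.3 and 26.4 in the knockout line, against 57.8 and 58.3 in the mutant degron line (-0.99 ± 0.13), and IGSF8 had 29.7 and 26.97 in the knockout line, against 43.8 and 41.5 in the mutant degron line (-0.57 ± 0.11). JUP, NRCAM, ALCAM and ROBO1 kept their calls with each of the 4 libraries left out, and FAT1, L1CAM and IGSF8 did not.

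Targets of YAP and TEAD rose where they were called. YAP is a coactivator that the Hippo kinases keep in the cytoplasm, and with TEAD factors it drives genes of matrix, cytoskeleton and growth. Of 16 list members tested, 8 rose and none fell, against 6.08% higher among all loci. The median was 0.37, with 0.48 without Shld and 0.40 with Shld. CTGF, a matricellular growth factor also named CCN2 and the best known target, had 79.1 and 78.5 in the knockout line, against 29.5 and 31.9 in the mutant degron line, while wildtype degron cells had 5.42 and 3.51 and parental cells 3.55 and 2.395 (1.33 ± 0.18, adjusted p = 0.002). CRIM1, a transmembrane protein that binds BMPs, had 26.6 and 34.1 in the knockout line, against 17.6 and 18.5 in the mutant degron line, and 2.31 and 1.92 in parental cells (0.71 ± 0.14). The angiomotin family holds YAP-binding proteins. Of these AMOTL2 had 41.4 and 39.6 in the knockout line, against 24.3 and 24.3 in the mutant degron line (0.72 ± 0.18) and AMOTL1 22.2 and 19.9 in the knockout line, against 12.5 and 14.3 in the mutant degron line (0.61 ± 0.11). GADD45B had 53.1 and 41.7 in the knockout line, against 29.5 and 26.9 in the mutant degron line (0.72 ± 0.14).

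MYOF, a membrane repair protein, had 15.6 and 11.8 in the knockout line, against 6.72 and 7.74 in the mutant degron line (0.83 ± 0.14), and DLC1, a GTPase activator, had 122 and 130.4 in the knockout line, against 85.2 and 96.3 in the mutant degron line (0.47 ± 0.12). YAP1 itself had 94.8 and 98.4 in the knockout line, against 69.6 and 74.5 in the mutant degron line (0.42 ± 0.08). In each of these 8 genes both knockout libraries were above both mutant degron libraries. This adds nothing to the calls, since all 1084 calls and 59.1% of all loci tested had no overlap. In parental cells 7 of the 8 were lower than in the mutant degron line, and MYOF, with 13.8 and 12.98, was the exception. The count fell most when a mutant degron library was left out. With either one of the knockout libraries left out 7 rose, whereas 3 rose without the mutant degron library with Shld and 1 without the one lacking Shld. The call that held through all 4 omissions was that of CTGF.

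The promoter of CTGF is shown because it carries the binding letters of the factor that names this list. The stretch is the 250 bases before the transcription start in RefSeq (GRCh38.p14, minus strand, chr6:131951373-131951622), a build other than the hg19 of the deposited values. Capitals mark GGAATG, the core that TEAD factors bind. It holds 3 copies.
CTGF: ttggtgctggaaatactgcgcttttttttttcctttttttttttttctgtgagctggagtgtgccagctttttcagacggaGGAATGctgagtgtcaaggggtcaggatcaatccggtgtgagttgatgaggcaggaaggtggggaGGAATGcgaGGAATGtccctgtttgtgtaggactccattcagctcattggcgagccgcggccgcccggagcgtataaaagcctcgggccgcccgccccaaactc

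Searched on both strands, GGAATG or its reverse complement was present in the same stretch of 3 of 13 list members with a promoter in the table (CTGF, PTPN14 and YAP1), and of 638 of 7017 tested genes (9.09%). A match is a description of letters and not a bound site, and TEAD factors are known to act largely from enhancers, which these stretches leave out.

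Contractile and cytoskeletal genes of smooth muscle type rose where they were called. Of 15 tested, 4 rose, beside 6.08% higher among all loci, and none fell, with a median of 0.13. TAGLN, an actin-bundling protein, had 9.21 and 12.7 in the knockout line, against 6.69 and 6.06 in the mutant degron line (0.68 ± 0.14). CALD1, caldesmon, had 174 and 173 in the knockout line, against 109 and 119 in the mutant degron line (0.60 ± 0.09) and kept its call with each of the 4 libraries left out. PALLD had 53.02 and 67.5 in the knockout line, against 38.8 and 39.8 in the mutant degron line (0.59 ± 0.13). Between 1 and 4 of the list rose when 1 of the 4 libraries was left out, the fewest without the mutant degron library lacking Shld.

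Transcription factors of the neural crest and of epithelial to mesenchymal transition rose at most of the members called. Of 10 tested, 6 rose and 1 fell, beside 6.08% higher and 6.52% lower among all loci, and the median of 0.61 was 0.58 without Shld and 0.62 with Shld. PRRX1, a homeobox factor of mesenchyme, had 17.9 and 17.4 in the knockout line, against 6.87 and 5.91 in the mutant degron line, and 5.04 and 4.23 in parental cells (1.34 ± 0.12, adjusted p = 0.0002). SNAI2, also named SLUG, had 167 and 195 in the knockout line, against 106 and 112 in the mutant degron line, and 79.5 and 85.1 in parental cells (0.72 ± 0.10). SOX4 had 102 and 97.99 in the knockout line, against 65.4 and 63.9 in the mutant degron line (0.62 ± 0.08) and SOX9 9.77 and 6.86 in the knockout line, against 4.13 and 4.29 in the mutant degron line (0.82 ± 0.16). TFAP2C had 32.3 and 37.00 in the knockout line, against 22.1 and 22.9 in the mutant degron line (0.60 ± 0.09) and FOXD3, which marks early crest cells, 12.4 and 13.6 in the knockout line, against 9.61 and 8.37 in the mutant degron line (0.49 ± 0.11). MSX1 fell, with 32.2 and 26.2 in the knockout line, against 49.8 and 54.7 in the mutant degron line, and parental cells had 27.3 and 26.2 (-0.82 ± 0.11), so here it was the mutant degron line that was high. PRRX1, SNAI2, SOX4, TFAP2C and MSX1 kept their calls with each of the 4 libraries left out, and FOXD3 and SOX9 did not. With 1 library left out between 4 and 6 of the list rose.

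Melanocyte genes fell where they were called. Of 20 tested, 7 fell and none rose, against 6.52% lower among all loci, and the median was -0.34, with -0.41 without Shld and -0.25 with Shld. DCT, an enzyme of eumelanin synthesis, had 1.15 and 2.04 in the knockout line, against 9.28 and 9.12 in the mutant degron line, while wildtype degron cells had 10.4 and 16.7 and parental cells 10.8 and 12.8 (-2.0 ± 0.22, adjusted p = 0.00065). CAPN3, a calpain with high levels in melanocytes, had 273 and 308 in the knockout line, against 573 and 533 in the mutant degron line (-0.93 ± 0.11). MLANA, the melanosome protein Melan-A, had 703 and 723 in the knockout line, against 1217 and 1096 in the mutant degron line, and 1824 and 2283 in parental cells (-0.70 ± 0.13). RAB27A, which tethers melanosomes to actin, had 8.03 and 7.03 in the knockout line, against 12.8 and 12.1 in the mutant degron line (-0.66 ± 0.09), with 35.3 and 33.2 in parental cells. A pair of melanosome transporters fell as well. OCA2 had 5.42 and 5.405 in the knockout line, against 9.57 and 7.84 in the mutant degron line (-0.59 ± 0.11), and SLC24A5 had 172 and 165 in the knockout line, against 238 and 220.1 in the mutant degron line (-0.44 ± 0.10). APOE had 431 and 320.3 in the knockout line, against 710.4 and 629 in the mutant degron line (-0.84 ± 0.16), and its neighbour APOC1 fell more, as given above.

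The summed level of the 21 melanocyte genes in the table was 9068 and 9718 in the knockout line, 12765 and 10809.6 in the mutant degron line, 18826 and 20234 in wildtype degron cells and 17003 and 15823 in parental cells, without and with Shld. The knockout line had the lowest sum in each Shld state. TYRP1 and PMEL had the highest levels in it and were not called, nor were MITF, SOX10 and TYR. TYRP1 had 2786 and 3349 in the knockout line, against 3531 and 2908 in the mutant degron line, so with Shld it was higher in the knockout line. In each line the sum stayed far above the sums of the epithelial, endothelial and fibroblast markers given below, though single members such as DCT did not. In bulk samples, fewer cells of a type and less RNA per cell cannot be told apart. DCT, CAPN3 and RAB27A kept their calls with each of the 4 libraries left out. The number of members that fell was 9 and 7 without the knockout library with Shld and without the one lacking it, and 5 and 3 for the mutant degron libraries in the same order.

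The promoter of SLC24A5, a member that fell, is shown for the letters of the melanocyte master factor MITF, which binds CATGTG and CACGTG. The stretch is the 250 bases before the start in RefSeq (GRCh38.p14, plus strand, chr15:48120740-48120989), and capitals mark CATGTG read on the opposite strand.
SLC24A5: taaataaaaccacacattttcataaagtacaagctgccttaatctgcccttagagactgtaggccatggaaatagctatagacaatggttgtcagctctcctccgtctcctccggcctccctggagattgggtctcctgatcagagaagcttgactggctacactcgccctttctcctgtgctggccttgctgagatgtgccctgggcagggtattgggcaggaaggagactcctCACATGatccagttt

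CATGTG on either strand was present in 7 of 17 list members with a promoter in the table (EDNRB, GPNMB, GPR143, OCA2, SLC24A5, TYR and TYRP1), and in 358 of 7017 tested genes (5.102%). CACGTG was present in 1 of the same 17, MLPH, and in 642 of all (9.15%). Of the 7 genes with CATGTG, OCA2 and SLC24A5 fell and the other 5 were not called. The 5 other members that fell do not hold CATGTG in this stretch.

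**Figure D3:**
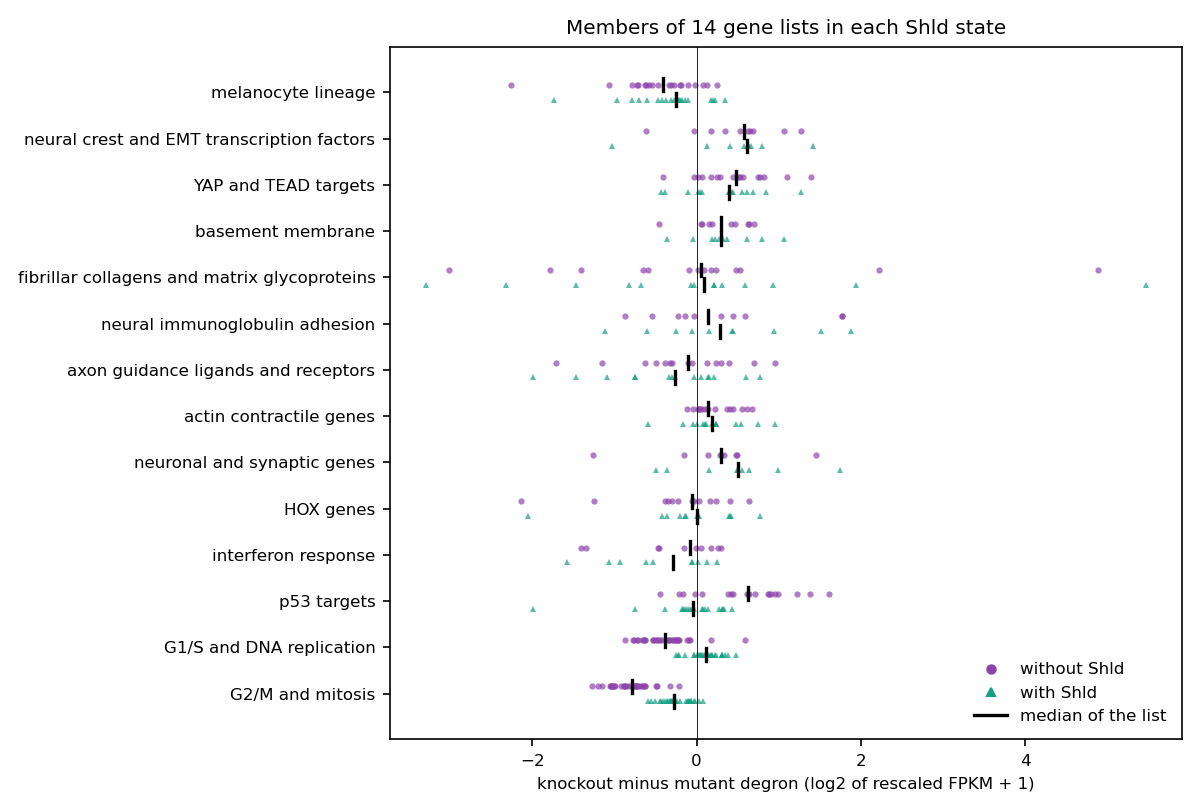
Difference between the knockout and the mutant degron line (log2) of each tested member of 14 gene lists; purple circles are values without Shld, green triangles values with Shld, and black bars the medians. The lists of neural crest factors and YAP targets lie mostly right of 0 and the melanocyte list mostly left of 0 in both states, while the medians of the p53 and cell cycle lists differ between the states, a difference that was not called for any member.

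Genes of neurons and glia were mixed. Of 9 neuronal genes with enough signal 4 rose, beside 6.08% higher among all loci, and none fell (median 0.32). MAP2, a microtubule protein of dendrites, had 92.1 and 113 in the knockout line, against 32.95 and 32.98 in the mutant degron line, and 14.04 and 12.4 in parental cells (1.6 ± 0.11, adjusted p = 5.2e-05). TUBB3 had 261 and 255 in the knockout line, against 187 and 173 in the mutant degron line (0.52 ± 0.09), STMN3 42.4 and 49.2 in the knockout line, against 33.5 and 31.3 in the mutant degron line (0.48 ± 0.11) and NLGN2 28.6 and 29.1 in the knockout line, against 23.2 and 20.5 in the mutant degron line (0.39 ± 0.09). MAP2 kept its call with each of the 4 libraries left out, and between 1 and 3 of the list rose then. S100B, a calcium-binding protein of Schwann cells and melanocytic cells, fell to 33.8 and 20.7 in the knockout line, against 112 and 122 in the mutant degron line, and parental cells had 70.1 and 88.8 (-2.1 ± 0.26, adjusted p = 0.0012). PMP22, a myelin protein, rose, with 230.2 and 253 in the knockout line, against 155 and 161 in the mutant degron line (0.61 ± 0.09). Both held through the same omissions.

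Markers of epithelial, endothelial and fibroblast cells were low, while 1 immune marker and glial markers shared with melanocytic cells were not. All 7 epithelial markers in the table were under 1 in every library, and their sum was 0.53 and 0.305 in the knockout line, against 0.779 and 0.7 in the mutant degron line. Of 7 endothelial markers 6 were under 1 in every library, and the sum was 0.568 and 0.789 in the knockout line, against 1.56 and 1.62 in the mutant degron line. The fibroblast markers summed to 1.79 and 1.83 in the knockout line, against 8.54 and 6.89 in the mutant degron line, nearly all of it LUM. Of the 5 fibroblast markers THY1 was listed at 0 in all 8 libraries, and COL1A2 and DCN stayed under 1. The sum of 5 immune markers was 803 and 834 in the knockout line, against 798 and 764 in the mutant degron line. It was almost wholly CD68, a lysosomal protein that melanocytic cells also make, and CD3E and CD163 were listed at 0 in all 8 libraries. The summed level of 9 Schwann and glial markers was 1105 and 1090.4 in the knockout line, against 1101 and 1067 in the mutant degron line.

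Guidance cues for axons changed in both directions. Of 15 ligands and receptors, 6 fell and 2 rose, beside 6.52% lower and 6.08% higher among all loci. The median of -0.07 changed sign under 2 other settings. EFNB2, a membrane ligand for Eph receptors, had 5.62 and 4.54 in the knockout line, against 20.7 and 21.04 in the mutant degron line, with 5.83 and 5.07 in wildtype degron and 5.52 and 4.68 in parental cells (-1.85 ± 0.13, adjusted p = 5.1e-05). SEMA3A had 4.203 and 3.28 in the knockout line, against 10.5 and 10.9 in the mutant degron line, with 3.904 and 3.36 in parental cells (-1.31 ± 0.16). For both genes the knockout line lay at the parental level and the mutant degron line above it. SEMA5A had 17.05 and 14.5 in the knockout line, against 27.01 and 32.1 in the mutant degron line (-0.86 ± 0.13), SEMA6A 21.9 and 16.3 in the knockout line, against 29.04 and 28.1 in the mutant degron line (-0.57 ± 0.13), the receptor NRP2 12.1 and 11.1 in the knockout line, against 17.5 and 19.5 in the mutant degron line (-0.63 ± 0.11) and PLXNA1 40.7 and 42.4 in the knockout line, against 51.4 and 53.7 in the mutant degron line (-0.33 ± 0.08). SEMA3C rose, with 24.1 and 19.2 in the knockout line, against 11.9 and 10.9 in the mutant degron line, and its difference was 0.86 ± 0.16. PLXNB1, a semaphorin receptor, rose as well, with 87.5 and 81.8 in the knockout line, against 66.1 and 53.7 in the mutant degron line (0.50 ± 0.13). EFNB2, SEMA3A and SEMA5A kept their calls with each of the 4 libraries left out, and between 3 and 6 of the list fell then.

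HOX genes, which set position along the body axis and tend to keep their state in culture, differed at a few members. Of 13 tested, 3 fell and 1 rose, beside 12.6% of all loci called. The median of 0.01 changed sign under 4 other settings. HOXA7 had 18.8 and 20.1 in the knockout line, against 86.3 and 86.6 in the mutant degron line, with 64.4 and 57.8 in wildtype degron and 78.4 and 67.3 in parental cells (-2.09 ± 0.10, adjusted p = 5.3e-06). HOXA4 had 3.15 and 5.03 in the knockout line, against 8.86 and 7.07 in the mutant degron line (-0.83 ± 0.18), and the antisense transcript HOXA-AS4 of the same cluster had 1.11 and 0.570 in the knockout line, against 9.82 and 11.5 in the mutant degron line, with 15.5 and 14.2 in parental cells (-2.68 ± 0.16). HOXA4, HOXA7 and HOXA-AS4 are consecutive tested loci on chromosome 7. HOXC5 fell slightly, with 24.8 and 25.4 in the knockout line, against 32.6 and 32.8 in the mutant degron line (-0.37 ± 0.08), and HOXD1 rose, with 105 and 94.7 in the knockout line, against 66.7 and 54.9 in the mutant degron line (0.71 ± 0.13). Of the 4 calls in the list only that of HOXA7 held with each of the 4 libraries left out.

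Single genes of growth control differed clearly. MYC, the transcription factor that drives ribosome and metabolic genes, had 283 and 291 in the knockout line, against 171 and 149.8 in the mutant degron line, and 204 and 196 in parental cells (0.84 ± 0.09, adjusted p = 0.00074). CDK6, a kinase of the G1 phase, had 36.8 and 38.5 in the knockout line, against 13.7 and 16.5 in the mutant degron line (1.27 ± 0.15), with 7.66 and 6.29 in parental cells, and its inhibitor CDKN2D had 3.32 and 5.25 in the knockout line, against 10.3 and 11.6 in the mutant degron line (-1.2 ± 0.17). CDKN1B fell, with 30.9 and 35.7 in the knockout line, against 44.3 and 43.4 in the mutant degron line (-0.39 ± 0.09). ERBB2, a receptor tyrosine kinase, had 41.8 and 41.9 in the knockout line, against 25.4 and 25.1 in the mutant degron line (0.71 ± 0.10), and the Wnt effector TCF7L1 had 15.4 and 16.04 in the knockout line, against 9.39 and 8.88 in the mutant degron line (0.72 ± 0.09). Of 10 genes of MAPK output, beside 12.6% of all loci called, MYC rose and IER3 fell (33.4 and 22.4 in the knockout line, against 41.00 and 44.4 in the mutant degron line; -0.62 ± 0.17). The calls of MYC, CDK6, CDKN2D, ERBB2 and TCF7L1 held with each of the 4 libraries left out, and those of CDKN1B and IER3 did not.

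Genes of mitosis fell where they were called. All 32 members tested had a difference below 0, 9 of them fell and none rose, beside 6.52% lower among all loci, and the median was -0.53. As values of 1 library a line, with no test, the median was -0.79 without Shld and -0.28 with Shld. The difference between the states was not called for any of them. Cyclin B1, CCNB1, had 105 and 159 in the knockout line, against 213 and 216 in the mutant degron line (-0.73 ± 0.17), with 129 and 151 in parental cells. Of the mitotic kinases AURKA had 33.5 and 45.6 in the knockout line, against 64.3 and 69.02 in the mutant degron line (-0.76 ± 0.13), and PLK1 had 54.2 and 80.4 in the knockout line, against 101 and 104 in the mutant degron line (-0.62 ± 0.16). In each of these genes the knockout library without Shld was the lower one of its line, while the mutant degron libraries lay close together. NEK2, a centrosome kinase, had 32.6 and 51.03 in the knockout line, against 73.8 and 75.5 in the mutant degron line (-0.86 ± 0.17), and survivin, BIRC5, had 129 and 185 in the knockout line, against 237 and 236 in the mutant degron line (-0.61 ± 0.16).

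BUB1, TTK, NUF2 and SPC25, which act at the kinetochore, fell too, by 0.69, 0.57, 0.74 and 0.52 on the log2 scale. Relative to parental cells the list's median was -0.13 in the knockout line and 0.40 in the mutant degron line, so the mutant degron line was the further of the 2 from parental. None of the 9 calls held through all 4 omissions. How many members were called depended on which library was left out, as did the count of calls over all loci. DNA replication genes of the G1/S list had a median of -0.17, with -0.38 without Shld and 0.12 with Shld. None of its 32 members was called by limma over both states, beside 12.6% of all loci. Of the 32, 5 had an unadjusted p under 0.05 in limma, beside 2450 of all 8600 loci.

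Targets of p53, the damage-responsive transcription factor, were called in both directions. Of 20 tested, 2 rose and 1 fell, beside 6.08% higher and 6.52% lower among all loci, with a median of 0.32. As values of 1 library a line, with no test, the median was 0.63 without Shld and -0.04 with Shld. CDKN1A, the cell cycle inhibitor p21, had 296 and 88.9 in the knockout line, against 96.5 and 94.3 in the mutant degron line, so that the knockout library without Shld stood alone above the other 7. Its difference was 1.61 without Shld and -0.08 with Shld, and it was not called over both (adjusted p = 0.27). ZMAT3 had 36.2 and 15.5 in the knockout line, against 13.3 and 12.1 in the mutant degron line (differences 1.38 without Shld and 0.33 with Shld). GDF15, a stress-induced cytokine, had 667 and 202 in the knockout line, against 772 and 809.5 in the mutant degron line, so here it was the knockout library with Shld that stood apart, below the other 7 (differences -0.21 without Shld and -2.00 with Shld).

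XPC, a DNA damage sensor, had 37.1 and 25.4 in the knockout line, against 19.9 and 18.5 in the mutant degron line (0.65 ± 0.15) and rose, as did the exonuclease AEN, with 45.03 and 32.8 in the knockout line, against 27.2 and 26.2 in the mutant degron line (0.51 ± 0.14), whereas TP53I3 fell, with 7.06 and 5.63 in the knockout line, against 9.94 and 10.1 in the mutant degron line (-0.60 ± 0.15). None of these 3 calls held through all 4 omissions. The test of the difference between the states gave adjusted p-values of 0.17 for CDKN1A and 0.21 for GDF15, so a dependence on Shld was not called. Days of withdrawal, a DD on wildtype SF3B1 and clone all differ between the 2 lines without Shld according to the column names, and they cannot be told apart here.

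**Figure D4:**
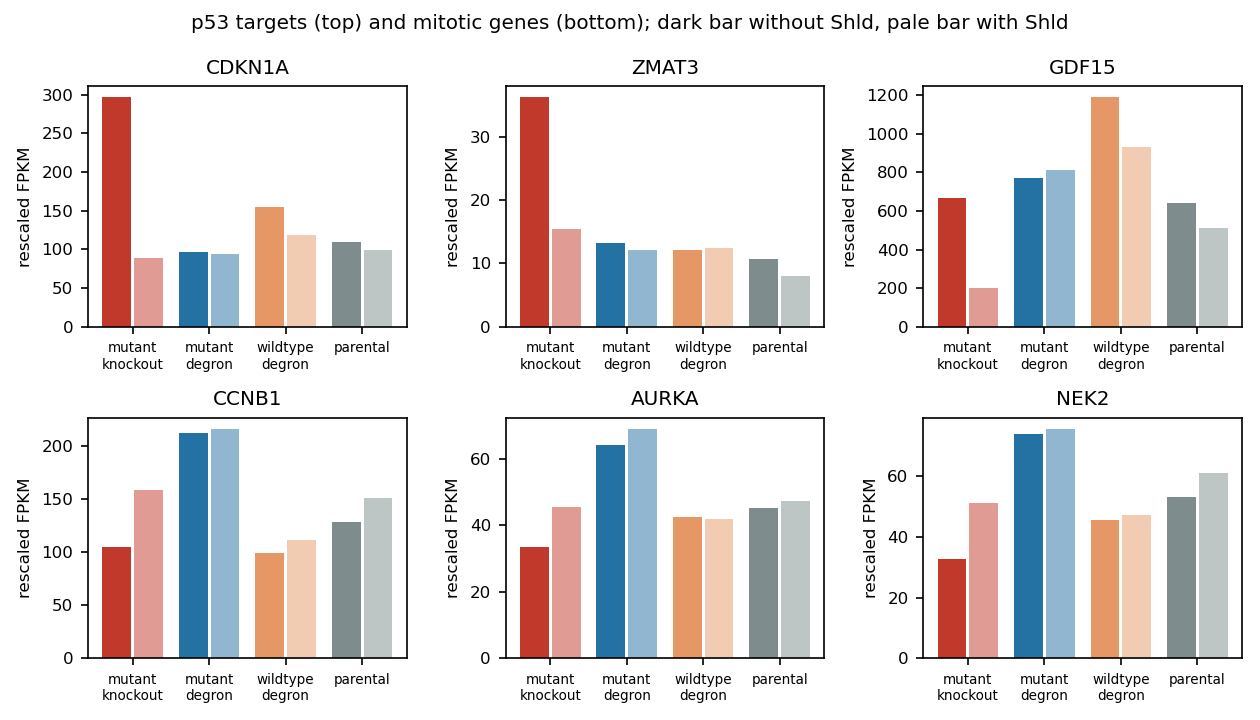
Rescaled FPKM in each of the 8 libraries for 3 p53 targets (top row) and 3 mitotic genes (bottom row); the dark bar of each pair is without Shld and the pale bar with Shld. CDKN1A and ZMAT3 are highest in the knockout library without Shld, GDF15 is lowest in the knockout library with Shld, and CCNB1, AURKA and NEK2 are highest in both mutant degron libraries.

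Interferon genes were called in 1 direction. Of 10 interferon-response genes, 2 fell, beside 6.52% lower among all loci, and none rose (median -0.28). IFITM3, a membrane protein that blocks virus entry, had 18.4 and 15.7 in the knockout line, against 50.6 and 49.1 in the mutant degron line, with 70.3 and 64.9 in parental cells (-1.5 ± 0.11, adjusted p = 5.2e-05), and IFI35 had 5.36 and 7.199 in the knockout line, against 15.1 and 14.6 in the mutant degron line, with 35.2 and 33.4 in parental cells (-1.14 ± 0.12). Both held with each of the 4 libraries left out. HLA-DMA, which loads peptides on MHC class II, had 12.05 and 6.68 in the knockout line, against 22.04 and 19.9 in the mutant degron line (-1.13 ± 0.20), a call that was lost without the mutant degron library lacking Shld. Of 7 class I presentation genes, HLA-F rose and MICB fell, both by less than 0.5, beside 12.6% of all loci called. The near-identical class I genes share reads, so their values are uncertain.

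Metabolic and stress lists differed in how many members were called. Of 17 genes of fatty acid synthesis and lipid handling 1 rose and 4 fell, and of 17 genes of cholesterol synthesis 2 rose and 2 fell, beside 12.6% of all loci called. The fatty acid receptor CD36 had 564 and 558 in the knockout line, against 1377 and 1261 in the mutant degron line, with 516 and 467 in parental cells (-1.23 ± 0.10, adjusted p = 0.00012), so that the mutant degron line stood apart. The carbonic anhydrase CA12 had 14.4 and 13.1 in the knockout line, against 26.8 and 31.2 in the mutant degron line (-1.02 ± 0.13) and was the 1 call of 20 genes of glycolysis and hypoxia. SQLE, an enzyme of cholesterol synthesis, had 406 and 464 in the knockout line, against 257 and 226 in the mutant degron line (0.85 ± 0.14). PHGDH, which starts serine synthesis, had 125 and 185 in the knockout line, against 88.5 and 46.2 in the mutant degron line (1.23 ± 0.34, adjusted p = 0.049), and MTHFD1L of the folate cycle had 34.7 and 34.2 in the knockout line, against 24.2 and 23.3 in the mutant degron line (0.52 ± 0.08). MANF, a factor released under stress of the endoplasmic reticulum, had 25.5 and 22.7 in the knockout line, against 49.2 and 51.8 in the mutant degron line (-1.04 ± 0.11), and CRELD2, another stress-induced gene of this organelle, had 28.99 and 36.5 in the knockout line, against 49.5 and 53.7 in the mutant degron line (-0.65 ± 0.16). Of 18 genes of that list 2 fell and none rose, near the 12.6% of all loci called, with a median of -0.25. CRYAB, a small heat shock chaperone, had 1717 and 937 in the knockout line, against 547 and 587 in the mutant degron line (1.16 ± 0.24). Of the calls in these lists of metabolism and stress those of CD36, CA12 and MANF held with each of the 4 libraries left out.

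No proteasome subunit of 24 was called by limma at an adjusted p under 0.05, beside 12.6% of all loci. Of the 24, 4 had an unadjusted p under 0.05 in limma, beside 2450 of all 8600 loci. PSMD5, the assembly chaperone, was nevertheless under 1 in the knockout line. The largest difference in that list was that of PSMB3, with 217 and 201 in the knockout line, against 246 and 278 in the mutant degron line (-0.33 ± 0.13, adjusted p = 0.14). Cytosolic ribosomal protein genes had a median of 0.15 over 61 members, of which only RPL13 was called, beside 12.6% of all loci. RPL13 rose, with 447 and 496 in the knockout line, against 357 and 322 in the mutant degron line (0.47 ± 0.10). In oxidative phosphorylation 1 of 28 was called, beside the same 12.6%. This was SDHB, which fell, with 156 and 144 in the knockout line, against 188 and 202 in the mutant degron line (-0.37 ± 0.10). Of 173 zinc finger genes named ZNF, 9 rose and 2 fell, led by ZNF253, ZNF704 (33.7 and 38.6 in the knockout line, against 18.2 and 16.98 in the mutant degron line; 1.0 ± 0.11), ZNF426 (8.74 and 6.92 in the knockout line, against 3.36 and 3.71 in the mutant degron line; 0.95 ± 0.14) and, among the falls, ZNF114 (4.31 and 5.41 in the knockout line, against 10.8 and 13.6 in the mutant degron line; -1.17 ± 0.14) and ZNF542 (6.03 and 6.19 in the knockout line, against 11.3 and 12.4 in the mutant degron line; -0.85 ± 0.10). The 5 zinc finger genes named here kept their calls through all 4 omissions, and RPL13 and SDHB did not. Calls made up 11 of 173 in this family, beside 12.6% of all loci.

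Genes with known splicing changes in cells that carry mutant SF3B1 are the group that the edit addresses. Of 23 tested at the gene level, 3 rose and 1 fell, beside 12.6% of calls among all loci, and the median was 0.07. DPH5, an enzyme of diphthamide synthesis, had 31.7 and 34.99 in the knockout line, against 22.5 and 15.4 in the mutant degron line (0.81 ± 0.17). TTI1 had 18.6 and 20.5 in the knockout line, against 13.5 and 10.9 in the mutant degron line (0.65 ± 0.16) and the kinase MAP3K7 15.6 and 15.3 in the knockout line, against 12.2 and 10.03 in the mutant degron line (0.44 ± 0.11), while the transporter ABCC5 fell, with 51.4 and 57.3 in the knockout line, against 72.1 and 82.2 in the mutant degron line (-0.50 ± 0.10). None of the 4 calls held with each of the 4 libraries left out. The table gives 1 value per gene, so use of a cryptic splice site within a gene is not measured. Of the splicing regulators, MBNL2 fell, with 46.8 and 35.5 in the knockout line, against 74.6 and 84.9 in the mutant degron line (-0.95 ± 0.15), and MBNL1 and RBFOX2 rose by 0.40 and 0.33. Of 11 nonsense-mediated decay factors UPF2 rose, with 20.8 and 18.7 in the knockout line, against 13.7 and 14.7 in the mutant degron line (0.45 ± 0.11). SMARCA1, a chromatin remodelling ATPase, had 27.97 and 26.8 in the knockout line, against 11.4 and 7.99 in the mutant degron line (1.42 ± 0.20). Its call held through all 4 omissions, and those of MBNL1, MBNL2, RBFOX2 and UPF2 did not.

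Differences were spread over the genome. By name, 8492 of the 8600 loci could be placed on a chromosome with RefSeq. The median difference of a chromosome lay between -0.02 and 0.05 on all 23 chromosomes counted, and the share of called loci between 8.37% and 23.2%, the highest on chromosome 21 with 13 rises and 6 falls among 82 loci. Neighbouring tested loci called in the same direction formed 78 pairs, 9 runs of 3 and 1 run of 5. ABHD6, RPP14, PXK and PDHB, neighbours on chromosome 3, rose together, with differences of 0.69 ± 0.11, 0.59 ± 0.12, 0.90 ± 0.12 and 0.44 ± 0.11. PDHB, a subunit of pyruvate dehydrogenase, had 106 and 117 in the knockout line, against 81.8 and 81.8 in the mutant degron line, and PXK had 8.11 and 7.37 in the knockout line, against 3.69 and 3.698 in the mutant degron line. A run of 3 on chromosome 4 ended with IGFBP7, a secreted binding protein of insulin-like growth factors, which had 281 and 312 in the knockout line, against 124 and 113 in the mutant degron line, with 39.1 and 33.5 in parental cells (1.31 ± 0.12, adjusted p = 0.0002). On chromosome 17 ST6GALNAC2, a sialyltransferase, had 22.1 and 25.2 in the knockout line, against 92.4 and 76.6 in the mutant degron line (-1.79 ± 0.13) and lay between CYGB and MXRA7, which fell as well.

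Uveal melanoma genes outside the lineage list gave 4 calls among 13 tested, beside 12.6% of all loci. ECM1, a secreted matrix protein and a marker of the aggressive class of these tumours, had 20.3 and 13.5 in the knockout line, against 34.2 and 40.5 in the mutant degron line (-1.12 ± 0.18). ROBO1, a marker of the less aggressive class, fell as given above. SATB1 and LTA4H, further markers of the less aggressive class, rose. SATB1 had 17.9 and 16.4 in the knockout line, against 12.2 and 10.4 in the mutant degron line (0.56 ± 0.11), and LTA4H had 66.5 and 68.4 in the knockout line, against 51.7 and 46.9 in the mutant degron line (0.45 ± 0.08). The calls of this list did not share a direction by class, and ROBO1 was the 1 that held with each of the 4 libraries left out.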

How the data were processed

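RNA-seq libraries of 4 MEL202 lines, with and without Shld, were made with TruSeq kits and read as 100-base pairs, per the labels' protocols. The submitters' processing notes name TopHat, Cufflinks and hg19. The authors deposited 1 table of 32087 loci, which holds FPKM-type values rescaled to a 75th percentile of 10. That FPKM was the input is inferred from the values and from Cufflinks. All 8 value columns were used, as log2(value + 1).

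One mean per line was fitted over the 8 libraries in limma 3.58.1 (R 4.3.3), with a mean-variance trend, 4 residual degrees of freedom, and Benjamini-Hochberg adjustment over 8600 loci. These had a name, a mean of at least 5, and the highest mean of their symbol. The procedure was checked on simulated data.

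Named were SF3B1, the 15 largest rises and falls against the mutant degron line, the 10 largest against the other lines, list members that were called or had the 4 largest differences, and neighbouring calls. The comparison and the lists were chosen with earlier results of these data known. Alternatives changed the pseudocount, filter, scaling and libraries. Promoters and chromosomes came from RefSeq (GRCh38.p14).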

Additional observations from a re-analysis of the deposited data

How the results depend on the processing

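Counts of calls changed most with the libraries used. With only the 4 libraries of the compared lines in limma 300.0 loci were higher and 353 lower. With Shld only, 191 were higher and 273 lower. Without Shld only, 310.0 were higher and 512 lower. With 1 of the 4 libraries left out the higher calls ranged between 124 and 688 and the lower ones between 171 and 925, the fewest without the mutant degron library with Shld, while the totals without either knockout library, 803 and 1613, stayed within 1.5 times of 1084. Other settings gave totals between 873 and 1344, within 1.5 times of 1084. These were pseudocounts of 0.1 and 5, filters at a mean of 1 or 10 or none, quantile scaling, and centring on the median. A term for Shld, all named loci, and omission of the parental or the wildtype degron libraries were the others. Similar totals can hide a change of loci. With no filter on level 884 loci were called, and only 484 of the 1084 were among them. Calls against the mean of the other lines ranged between 2331 and 3564. Of the 31 genes followed through all settings, the adjusted p of FBLL1 and of RGS16 in limma was 0.062 with no filter on level. No direction changed, but all except SF3B1 had been chosen for libraries that do not overlap, so this is no support. The medians of the YAP and TEAD, neural crest, melanocyte and mitosis lists kept their sign under every setting, whereas those of p53 targets, G1/S genes, axon guidance genes and mis-spliced genes changed sign under 2 settings each and that of HOX genes under 4. All settings drew on the same libraries, so a median that kept its sign is a description and no independent support. The causes were not tested. No paired analysis was possible because libraries of different lines share only the Shld state, which the term for Shld covers. Absolute depth is unknown, so counting error could not be given for any value.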

Other observations

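Further signalling and stress genes were called between the lines, mostly with small differences, and none of the calls named here held with each of the 4 libraries left out. The counts of calls in the lists below stand beside 12.6% of all loci called, and those of the TGF-beta and BCL2 lists lie near that share. Of 12 immediate early genes, which respond to growth factors within a single transcription wave, KLF6 and NR4A1 rose and EGR1 fell. KLF6 had 67.7 and 64.2 in the knockout line, against 47.8 and 47.2 in the mutant degron line (0.46 ± 0.08), NR4A1 124 and 109 in the knockout line, against 89.3 and 84.9 in the mutant degron line (0.41 ± 0.09) and EGR1 18.02 and 16.6 in the knockout line, against 23.3 and 24.3 in the mutant degron line (-0.44 ± 0.11). In TGF-beta and BMP signalling, the receptor TGFBR1 rose, with 20.3 and 19.4 in the knockout line, against 14.6 and 13.9 in the mutant degron line (0.46 ± 0.10), and ID1, a BMP target related to ID3, fell, with 70.9 and 66.4 in the knockout line, against 90.3 and 84.9 in the mutant degron line (-0.35 ± 0.09), among 16 tested. The Wnt receptor FZD6 fell, with 32.8 and 21.6 in the knockout line, against 43.04 and 44.8 in the mutant degron line (-0.70 ± 0.17), and NOTCH2 rose, with 47.6 and 43.5 in the knockout line, against 30.2 and 37.1 in the mutant degron line (0.43 ± 0.12). BID, which promotes cell death, had 28.8 and 27.9 in the knockout line, against 19.6 and 18.9 in the mutant degron line (0.53 ± 0.10) and was the 1 call of 8 BCL2 family genes. In the amino acid stress list of 11, DDIT4, an inhibitor of mTORC1, rose, with 65.03 and 53.8 in the knockout line, against 42.1 and 43.1 in the mutant degron line (0.46 ± 0.13), and VLDLR fell, with 77.8 and 59.6 in the knockout line, against 103 and 98.7 in the mutant degron line (-0.56 ± 0.14). The lipid enzymes ACSL1 and ACSL3 fell by 0.45 each, and ACACA, which makes malonyl-CoA for fatty acids, rose, with 32.4 and 36.3 in the knockout line, against 21.2 and 23.3 in the mutant degron line (0.60 ± 0.15).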
